A study of Mus musculus with 8 samples.

Results

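Hair follicle morphogenesis is directed by a small set of signalling genes and transcription factors, and their transcripts were compared between 2 genotypes in the epidermis of newborn mice. The set of 37 genes was drawn up by name, with earlier results of these data known, and holds members of the hedgehog, WNT, BMP and EDA pathways, further growth factors, and follicle transcription factors. Of the 37 genes, 36 were measured among 22180 genes. Msx1 lies only on probe sets that also name its antisense transcript and was left out. For genes with several probe sets, the one with the highest mean over all arrays was used. Total RNA from postnatal day 0 epidermis of C57BL/6J mice was measured on 8 expression arrays. In 4 of them (K320E below, genotype label K320E-TwinkleEpi) a mutant of Twinkle is expressed in the epidermis by means of the K14 promoter. Twinkle is the helicase that unwinds mitochondrial DNA. The K14 promoter is active in basal keratinocytes and the outer root sheath of the follicle. The other 4 arrays (control) carry the label R26-K320E-TwinkleloxP/+, so the controls bear a K320E-Twinkle allele too. Bulk RNA does not show which cells expressed the mutant. Whether cells of the matrix, inner root sheath and hair shaft did is not known here. Values are log2 intensities, and a fold change is the K320E mean minus the control mean on that scale.

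The follicle grows from a thickening of the epidermis, the placode, that forms over condensed dermal cells. WNT signalling through LEF/TCF factors and EDA signalling through its receptor EDAR set the placode, BMPs restrain it and BMP antagonists release it, and SHH from the placode then drives the downgrowth of the follicle and the maturation of the dermal condensate. Later, in the hair bulb, transcription factors such as FOXN1, HOXC13, MSX2 and DLX3 govern the matrix cells that turn into hair shaft and inner root sheath. Mouse skin at birth holds follicles of several waves, so early and late steps are present in the same tissue.

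The arrays were checked against their labels first. Twnk, which encodes Twinkle, was at 8.91 to 9.28 on the K320E arrays and at 6.55 to 6.95 on the controls, 2.31 higher on the log2 scale (SE 0.11, adjusted p = 0.00011 in limma). In the exact two-sided permutation test its p was 0.0286, the lowest that 8 arrays can reach. Epidermal keratinocyte markers (Krt14, Krt1, Krt10, Lor and Flg, with Krt10 and Krt1 the highest) averaged 12.20 to 12.43 in K320E and 12.14 to 12.25 in controls. Of these only Krt14 had groups without overlap, at 12.48 to 12.72 in K320E and 12.18 to 12.40 in controls. Its fold change was 0.27 (SE 0.07, limma adjusted p = 0.14), and 9.25% of all genes had groups without overlap. Sex-linked transcripts were unusual on 2 control arrays: replicate 2 had both Xist (9.27) and Y-linked transcripts (mean 9.05), and replicate 3 had neither (6.17 and 4.75). K320E replicate 3 had Y-linked transcripts (mean 8.64) with low Xist (6.84). The remaining arrays had Xist at 12.07 to 12.27 and Y-linked means of 4.75 to 4.82, so the arrays differ in sex-linked transcripts. Markers of tissue under the epidermis were highest on K320E replicate 3, with an adipocyte mean (led by Fabp4 and Plin1) of 8.81 against 6.91 to 7.57 on the other arrays. Skeletal muscle markers (led by Tnnt3 and Mylpf) averaged 6.85 to 8.07 in K320E and 6.32 to 7.22 in controls, endothelial ones (Cdh5 and Pecam1) 5.90 to 6.51 and 5.82 to 6.02, and melanocyte ones (Mlana and Dct) 8.11 to 8.52 and 8.37 to 8.87. Markers of Langerhans cells (H2-Ab1 and H2-Aa, both called lower, of 3) averaged 5.86 to 6.06 in K320E and 6.56 to 6.71 in controls. The third, Cd207, was not called (mean 5.58 in K320E and 5.65 in controls, fold change -0.07), so the lower mean came from the MHC class II genes H2-Ab1 and H2-Aa. Markers of T cells (Cd3g and Cd3d leading, 0 of 3 called) averaged 5.80 to 6.52 and 6.47 to 7.17. The labels leave unsaid whether each array holds the RNA of a different animal; the p-values therefore reflect the scatter of these samples, part of which may be technical.

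None of the 36 regulators passed the test for a difference between the genotypes. In limma's test with Benjamini-Hochberg adjustment over all genes, 0 of 36 had an adjusted p under 0.05, where 0.879% of all genes did (0.685% higher and 0.194% lower in K320E). The lowest adjusted p among them was 0.19, for the activin and BMP antagonist Fst. At an unadjusted p under 0.05 there were 2 of 36 (5.56%), Fst and the BMP receptor Bmpr1a, against 14.8% of all genes. This count was 4 without K320E replicate 1 (beside 13.2% of all genes) and 4 without control replicate 3 (14.5%). It was 3 without K320E replicate 3 (12.8%) and 1 without control replicate 1 (13.3%), with 0 called each time. The median SE was 0.12 over the regulators and 0.08 over all genes, and a larger SE makes a low p harder to reach. The 4 K320E and the 4 control values did not overlap for 2 of 36, Gli2 and Bmp4, against 9.25% of all genes. Fold changes ran from -0.35 to 0.28, with 16 positive (44.4%, beside 49.8% of all genes) and 20 negative. A change of at least 0.5 in size was seen for 0 of 36, beside 2.32% of all genes. Their median was -0.01, beside -0.00052 over all genes, and their median size without regard to sign was 0.09, beside 0.08.

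These values also bound what the arrays could show. The 95% interval of the difference, taken gene by gene, stayed within 1.5-fold in either direction for 34 of the 36 regulators and within 2-fold for all 36. The exceptions at 1.5-fold were the hedgehog receptor component Smo (up to 1.55-fold higher in K320E) and the matrix factor Cux1 (down to 0.551 of the control level). At the p of the last gene called (0.000437), a regulator would have needed a difference of 1.24-fold to 2.29-fold to be called, depending on its spread, with a median of 1.58-fold. Smaller differences could not be called with 4 arrays per group. The probe sets of 9 regulators (Hhip, Wnt5a, Dkk1, Dkk4, Nog, Grem1, Eda, Fgf20 and Hoxc13) had a mean under the median of all genes (6.36). No detection calls were available, so whether these lay above background is not known.

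**Figure D1:**
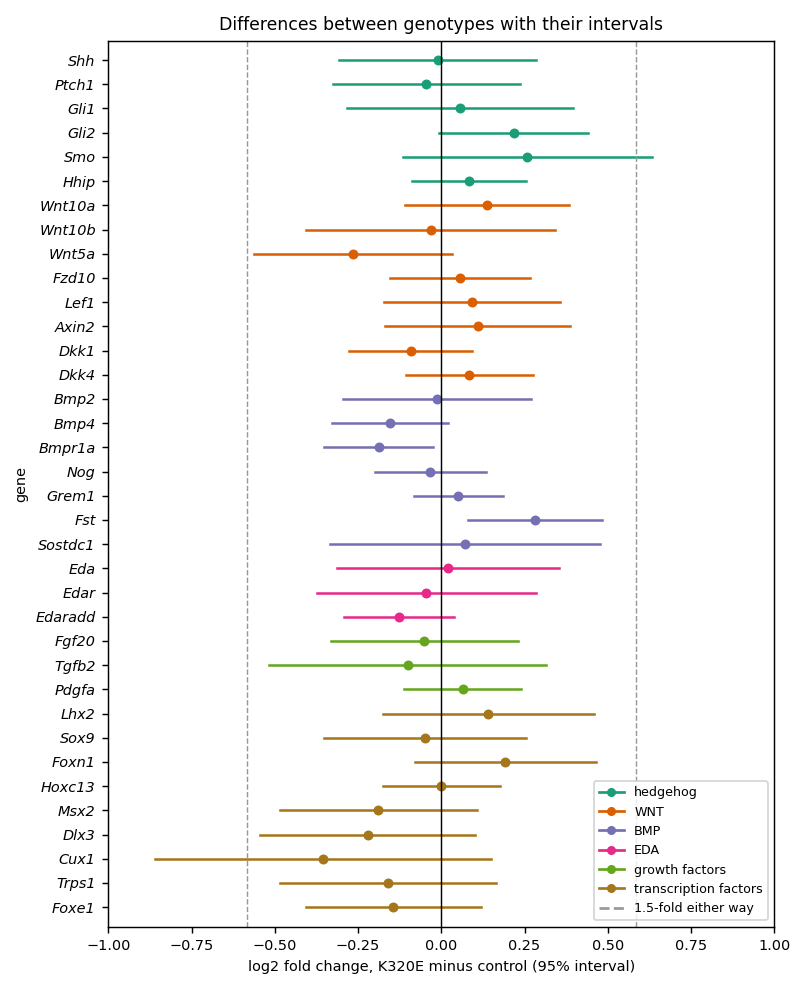
Log2 fold change (K320E minus control, points) with its 95% interval from limma (lines) for the 36 regulators, coloured by role. All points lie between -0.35 and 0.28, the intervals of Fst and Bmpr1a leave out 0, and those of Smo and Cux1 cross the dashed lines at 1.5-fold.

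The hedgehog genes include the ligand, its receptors and the target genes that report signalling. Shh, the ligand made by placode and matrix cells, measured 6.82, 6.36, 6.27 and 6.68 in K320E replicates 1 to 4 and 6.70, 6.61, 6.33 and 6.55 in control replicates 1 to 4. The groups overlapped throughout, and the fold change was -0.01 (SE 0.13, 95% interval -0.31 to 0.28). Ptch1, the SHH receptor and itself a target of the pathway, measured 10.72, 10.12, 10.28 and 10.19 in K320E and 10.43, 10.45, 10.35 and 10.26 in controls. Its highest value was that of K320E replicate 1, while K320E replicates 2 and 4 lay below every control. Gli1, the target gene most used as a readout of the pathway, measured 8.33, 7.64, 7.81 and 7.83 in K320E against 8.11, 7.75, 7.68 and 7.84 in controls. The fold changes were -0.04 for Ptch1 (95% interval -0.32 to 0.24) and 0.06 for Gli1 (-0.28 to 0.39), and both targets thus stayed within the spread between arrays.

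Gli2, the main activator among the GLI factors, was the hedgehog gene whose groups did not overlap. It measured 8.05, 7.75, 7.75 and 7.71 in K320E and 7.66, 7.68, 7.68 and 7.36 in controls. The gap between the lowest K320E and the highest control array was small beside the stretch from K320E replicate 1, the highest, to control replicate 4, the lowest. The fold change was 0.22 (SE 0.10, limma adjusted p = 0.35). Smo, the membrane protein that passes the signal on, ranged from 8.08 to 8.87 in K320E and from 7.90 to 8.20 in controls (fold change 0.26, SE 0.17). The highest Smo value was again K320E replicate 1. Hhip, a decoy receptor induced by the pathway, was dim on every array (5.02 to 5.37; fold change 0.08).

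The hedgehog values rested in part on 1 array. The mean over the 6 genes was 8.01 on K320E replicate 1 and between 7.53 and 7.74 on the other 7 arrays. With that array left out, the fold change was -0.18 for Ptch1 (limma adjusted p = 0.33) and -0.09 for Gli1 (adjusted p = 0.81), and the median over the hedgehog genes went from 0.07 to -0.01. In that fit Ptch1, Fst, Dlx3 and Cux1 were the 4 regulators with an unadjusted limma p under 0.05, beside 13.2% of all genes. K320E replicate 1 was also the highest of the 8 arrays for 16 of the 36 regulators (44.4%), where it was the highest for 19.4% of all genes. Control replicate 1 came next, as the highest for 8 regulators. The dependence was not particular to the hedgehog genes: K320E replicate 1 also had the highest mean of the BMP and of the EDA genes. Control replicate 1 had that of the WNT genes, growth factors and transcription factors.

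**Figure D2:**
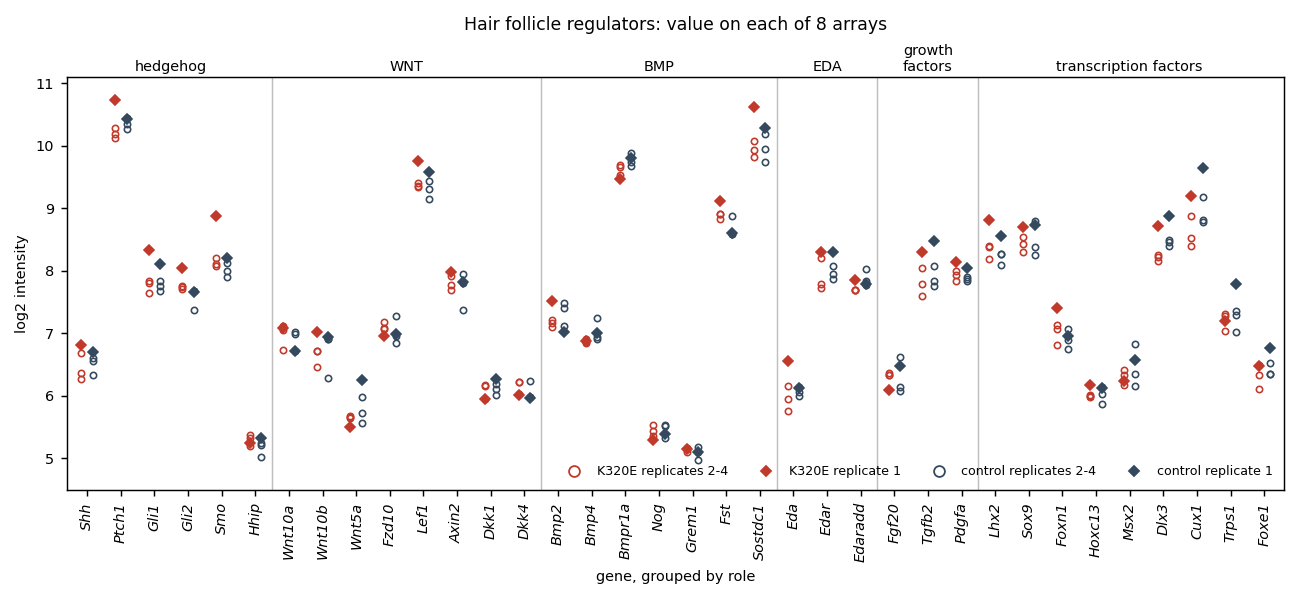
Log2 intensity of each of the 36 regulators on the 8 arrays (red, K320E; dark, control; filled diamonds, replicate 1 of each group). The groups overlap for every gene except Gli2 and Bmp4, and K320E replicate 1 is the highest array for 16 genes, among them Ptch1, Gli1, Smo, Lef1 and Lhx2. Levels of different genes come from different probe sets and cannot be compared.

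WNT signalling is represented by ligands, a receptor, the nuclear effector, a feedback target and secreted inhibitors. Lef1, the DNA-binding partner of beta-catenin in placode and matrix, measured 9.75, 9.33, 9.39 and 9.35 in K320E and 9.57, 9.43, 9.30 and 9.15 in controls. Replicate 1 was the highest array of each group, and the fold change was 0.09 (SE 0.12, 95% interval -0.17 to 0.36). Axin2, a negative feedback target widely read as a measure of canonical WNT activity, measured 7.98, 7.92, 7.77 and 7.69 in K320E and 7.81, 7.37, 7.81 and 7.94 in controls. Control replicate 2 lay low among otherwise mixed values, and the fold change was 0.11 (SE 0.12, 95% interval -0.17 to 0.39). A further Axin2 probe set had a fold change of 0.03.

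The WNT ligands showed no common direction. Wnt10a and Wnt10b, canonical ligands of the placode, had fold changes of 0.14 (SE 0.11) and -0.03 (SE 0.17). Wnt10a ranged from 6.73 to 7.11 in K320E and from 6.71 to 7.02 in controls. Wnt5a, a non-canonical ligand also made by dermal cells, measured 5.50, 5.66, 5.64 and 5.67 in K320E and 6.25, 5.73, 5.57 and 5.98 in controls. The K320E arrays lay close together and control replicates 1 and 4 were high, for a fold change of -0.26 (SE 0.13, limma adjusted p = 0.40). The receptor Fzd10 had a fold change of 0.06 (SE 0.09).

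Dkk1 and Dkk4, secreted inhibitors of WNT receptors, had fold changes of -0.09 (SE 0.08) and 0.08 (SE 0.08). Dkk1 is itself a known WNT target, and Edar, the EDA receptor, lies downstream of WNT in the placode. Part of each promoter is printed because theirs were the windows, among those of the 22 regulators with an entry in the RefSeq promoter table (GRCm38.p6, 250 bases before to 50 after the start), that held LEF/TCF letters. The letters CTTTGAA and CTTTGAT were searched on both strands. They share CTTTGA, so no position holds both, and 5.14% and 3.73% of all windows in the table hold them. Among the 27 windows of the 22 regulators, each was in 1 window, a share no higher than in all windows. Whether LEF/TCF factors bind at these matches was not tested. Capitals mark the match, and each sequence is given 5′ to 3′ on the minus strand, which is the strand of the gene.
Dkk1, chr19:30549582-30549638: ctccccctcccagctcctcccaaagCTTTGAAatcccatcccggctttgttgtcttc
Edar, chr10:58675898-58675946: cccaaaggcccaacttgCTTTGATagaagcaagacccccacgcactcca
The match begins 117 bases before the start in Dkk1 and 233 in Edar. The GLI letters GACCACCCA were in 0.253% of all windows and in 0 of the 27 windows of the 22 regulators. Neither Dkk1, at 5.94 to 6.17 in K320E and 6.02 to 6.27 in controls, nor Edar was called.

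BMP ligands restrain placodes and, later, promote hair shaft differentiation. Bmp4 measured 6.88, 6.84, 6.85 and 6.90 in K320E and 6.998, 6.90, 6.95 and 7.24 in controls. The groups did not overlap, but the highest K320E and the lowest control array were equal to 2 decimals. Control replicate 4 was the highest. The fold change of -0.16 (SE 0.08, limma adjusted p = 0.40) was -0.08 without control replicate 4. Bmp2, made in placode and matrix, had a fold change of -0.01 (SE 0.13).

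Bmpr1a, the type I receptor through which follicle keratinocytes receive BMP, measured 9.46, 9.52, 9.69 and 9.66 in K320E and 9.80, 9.88, 9.67 and 9.74 in controls. Control replicate 3 lay within the K320E values, so the groups overlapped. The fold change was -0.19 (SE 0.07, 95% interval -0.35 to -0.02, limma adjusted p = 0.27), or 0.878 of the control level.

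Fst, which encodes follistatin, an activin and BMP antagonist of keratinocytes, measured 9.12, 8.91, 8.91 and 8.83 in K320E and 8.60, 8.58, 8.58 and 8.88 in controls. Control replicate 4 alone reached into the K320E range. The fold change of 0.28 (SE 0.09, limma adjusted p = 0.19) was 1.22-fold, the largest positive difference among the regulators. It was 0.35 without control replicate 4 (adjusted p = 0.12) and 0.20 without control replicates 2 and 3, the arrays with unusual sex-linked transcripts (adjusted p = 0.49).

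The other BMP antagonists stayed near 0. Nog and Grem1, antagonists made mostly by dermal cells, were dim on every array (4.97 to 5.53 together) with fold changes of -0.03 (SE 0.07) and 0.05 (SE 0.06). Sostdc1, an epithelial antagonist of BMP and WNT, ranged from 9.81 to 10.61 in K320E and from 9.73 to 10.28 in controls (fold change 0.07, SE 0.18). In bulk tissue, fewer cells of a type and less RNA per cell cannot be told apart. Dermal markers did not separate the groups. The mean of 9 fibroblast markers, led by Postn and Dcn, was 7.41 to 8.13 in K320E and 7.35 to 7.95 in controls, 0 of 9 were called, and 3 of 9 lay under the median of all genes. The mean of 4 dermal papilla markers, led by Vcan and Alpl, was 6.50 to 6.69 and 6.49 to 6.67, with 0 of 4 called and 2 of 4 under that median. Their part in the values of Wnt5a, Nog and Grem1 was not tested.

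EDA signalling runs from the ligand Eda through the receptor Edar and its adaptor Edaradd to NF-kappaB. Edar measured 8.30, 7.79, 7.73 and 8.20 in K320E and 8.30, 8.08, 7.95 and 7.87 in controls. Each group spanned most of the range of the other, and the fold change was -0.04 (SE 0.15, 95% interval -0.37 to 0.28). Eda, which is X-linked, ranged from 5.76 to 6.55 in K320E and from 5.99 to 6.14 in controls (fold change 0.02, SE 0.15). Edaradd had a fold change of -0.13 (SE 0.07), with K320E at 7.69 to 7.85 and controls at 7.78 to 8.04.

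Among the further growth factors, Fgf20, a placode signal to the dermal condensate that lies downstream of EDA and WNT, had a fold change of -0.05 (SE 0.13). Tgfb2, which supports follicle downgrowth, had one of -0.10 (SE 0.18), and Pdgfa, an epidermal signal to dermal cells, one of 0.06 (SE 0.08). The groups overlapped for all 3 genes.

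The transcription factors had the lowest median of the role groups, -0.14, with 7 of 9 fold changes negative and 0 of 9 called. With each array left out in turn, this median ran from -0.195 to -0.022. Lhx2, a factor of placode and stem cells, measured 8.81, 8.18, 8.39 and 8.37 in K320E and 8.56, 8.09, 8.27 and 8.27 in controls. Replicate 1 led each group, and the fold change of 0.14 (SE 0.14) was 0.02 without K320E replicate 1. Sox9, needed for stem cells and the outer root sheath, measured 8.69, 8.30, 8.43 and 8.53 in K320E and 8.74, 8.38, 8.25 and 8.79 in controls (fold change -0.05, SE 0.13). Its 2 highest values were those of control replicates 4 and 1. Foxe1, a factor of the follicle downgrowth, had a fold change of -0.14 (SE 0.12). A further Foxe1 probe set had a fold change of -0.31.

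Factors of the differentiating hair matrix were also compared. Foxn1, the gene mutated in nude mice, measured 7.41, 6.82, 7.14 and 7.07 in K320E and 6.96, 7.06, 6.89 and 6.75 in controls. K320E replicate 1 was the highest and K320E replicate 2 lay within the controls, for a fold change of 0.19 (SE 0.12, 95% interval -0.08 to 0.46). Hoxc13, a regulator of hair keratin genes, measured 6.18, 5.99, 5.97 and 6.01 in K320E and 6.13, 5.87, 6.03 and 6.14 in controls. Its group means were equal to 2 decimals (6.04 ± 0.09 and 6.04 ± 0.13, SD, n = 4 each), with a 95% interval of -0.18 to 0.18. Both means lay under the median of all genes (6.36), and whether this probe set lay above background is not known.

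Cux1, a homeodomain factor of the matrix and inner root sheath lineage, had the lowest fold change of all the regulators and also the largest SE (-0.35, SE 0.22, limma adjusted p = 0.52). It measured 9.19, 8.40, 8.52 and 8.87 in K320E and 9.64, 8.77, 8.81 and 9.18 in controls. Within each group replicate 1 was the highest and replicate 4 the next, and K320E replicate 1 exceeded 3 of the 4 controls. The fit with the replicate number as a block gave the lowest adjusted p of any regulator in that fit, 0.085 for Cux1, still above the threshold. A further Cux1 probe set had a fold change of -0.28. Dlx3 (-0.22, SE 0.14), Msx2 (-0.19, SE 0.13) and Trps1 (-0.16, SE 0.14), factors of matrix, shaft and follicle morphogenesis, were not called either.

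Structural genes of the hair, which lie downstream of these factors, had larger differences on the same arrays. All 8 inner root sheath genes had negative fold changes (median -1.07). Of these, 6 of 8 had an unadjusted p under 0.05 (beside 14.8% of all genes) and 0 of 8 were called (beside 0.879%). Genes of the same hair structure are not replicates, so such counts are a description only. Their mean was 7.68 to 8.23 in K320E, and in controls it was 9.32, 8.19, 8.52 and 9.73 for replicates 1 to 4. Tchh, which encodes trichohyalin, had a fold change of -1.32 (SE 0.30, limma adjusted p = 0.092) and Krt25 one of -1.16 (SE 0.34, adjusted p = 0.16). The 8 hair shaft keratins, led by Krt34 and Krt35, were negative too (median -0.50), with means of 6.27 to 6.55 in K320E and 6.55 to 7.82 in controls. Of these, 4 of 8 had an unadjusted p under 0.05 and 0 of 8 were called, beside the same 14.8% and 0.879% of all genes. Whether the regulators and the structural genes differed from each other in their shift was not tested.

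**Figure D3:**
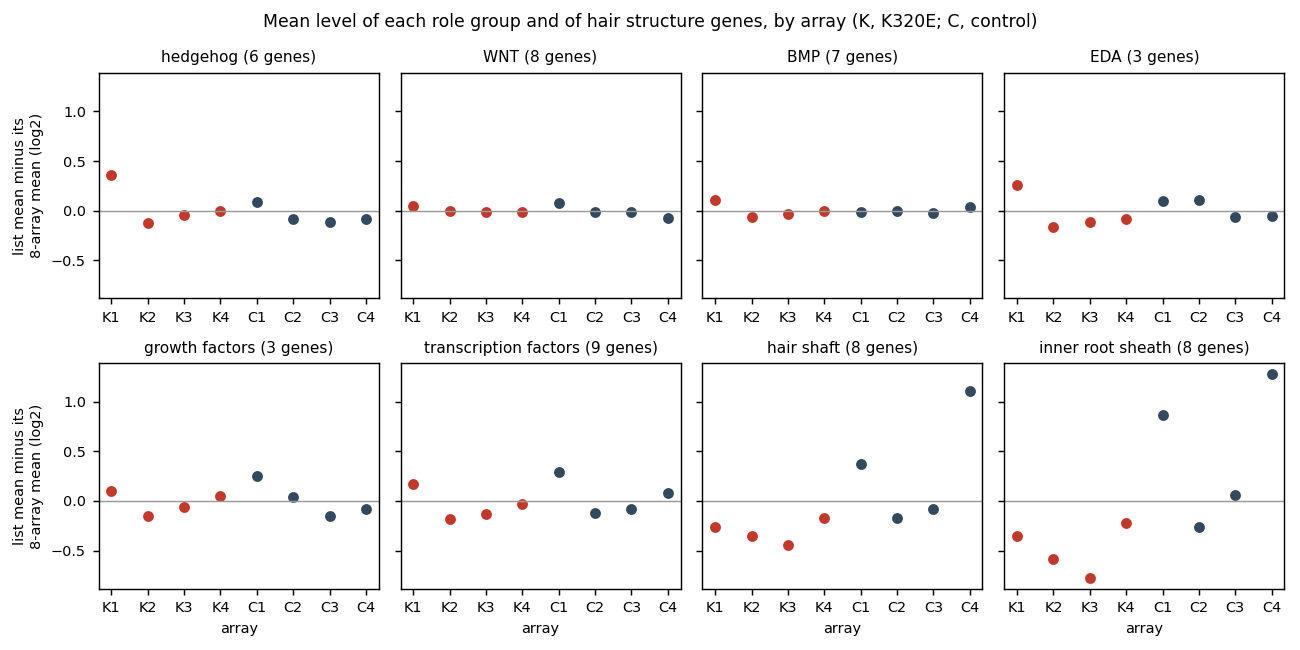
Mean log2 level of each role group of regulators, of 8 hair shaft keratins and of 8 inner root sheath genes on the 8 arrays (K, K320E, red; C, control, dark), as the deviation from its own mean over the arrays. Control replicates 1 and 4 are the highest arrays for both hair structure lists, while the regulator means stay close to 0 on most arrays. K320E replicate 1 stands highest for the hedgehog, BMP and EDA genes, and control replicate 1 for the WNT genes, growth factors and transcription factors.

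Controls 1 and 4 carried the high hair structure values, and 5 of the 36 regulators (13.9%; 5.92% of all genes) had those same 2 arrays as their highest: Wnt5a, Bmp4, Sox9, Msx2 and Trps1. With only these 2 controls kept, that is, without control replicates 2 and 3, 7 of 36 regulators had an unadjusted p under 0.05, namely Gli2 and these 5 with Cux1, beside 14.0% of all genes in that fit, and 0 were called. The 5 were picked for being high on the very controls that this fit keeps, so their p-values in it are no separate evidence. Wnt5a was then the lowest at an adjusted p of 0.082. The part that the hair structure level of these arrays plays in these values was not tested.

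Other genes of the same pathways were compared from a list of 128, of which 124 were measured. In limma's test, adjusted over all genes, 0 of 124 were called, beside 0.879% of all genes. An unadjusted p under 0.05 was found for 18 (14.5%, beside 14.8% of all genes). Of these, 12 were higher in K320E (9.68%, beside 8.77%) and 6 lower (4.84%, beside 6.06%). For 10 (8.06%, beside 9.25%) the groups did not overlap. The median fold change was 0.04, and 75 of 124 were positive (60.5%, beside 49.8% of all genes).

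By pathway, the lowest unadjusted p belonged to these genes. Gas1, a SHH co-receptor, had a fold change of -0.16 (SE 0.07; 11 hedgehog genes, 1 at an unadjusted p under 0.05). Tcf7l2, a TCF factor, had one of -0.24 (SE 0.07; 48 WNT genes, 8 of them, 5 higher and 3 lower). Inhbb, an activin subunit, had one of 0.28 (SE 0.06, limma adjusted p = 0.092; 26 BMP genes, 3 of them). In the EDA list the signalling adaptor Tab2 came first at -0.20 (SE 0.06; 8 genes, 3 of them). Fgf7 led the FGF, TGF-beta and PDGF list at 0.38 (SE 0.14; 13 genes, 2 of them), and Prdm1, a factor of sebaceous and epidermal differentiation, led the transcription factors at 0.29 (SE 0.12; 18 genes, 1 of them).

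A few more genes were chosen after their values were seen. Inhba, the other activin subunit, whose dimers follistatin binds, measured 6.14, 6.21, 6.35 and 5.90 in K320E and 5.73, 5.85, 5.71 and 5.71 in controls. Its groups did not overlap, and its fold change of 0.40 (SE 0.09) had an adjusted p of 0.095. Inhbb measured 6.52, 6.51, 6.62 and 6.70 against 6.31, 6.25, 6.29 and 6.39, also without overlap. Over all genes, 9.25% had groups without overlap. Both activin subunits and their antagonist Fst had positive fold changes, none of them past the threshold. The 3 genes were named for a low p or after their values were seen, so their shared sign is no separate evidence.

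Some WNT ligands of interfollicular epidermis were also chosen after their values were seen. Wnt4 (fold change 0.41, SE 0.12, limma adjusted p = 0.16) was higher on every K320E than on every control array. So was Wnt3 (0.35, SE 0.10, adjusted p = 0.16), while Wnt16 (-0.23, SE 0.08, adjusted p = 0.22) was lower on every one. For the other WNT ligands of the pathway list the groups overlapped: Wnt6 (fold change 0.008), Wnt7a (0.04), Wnt7b (0.09) and Wnt11 (0.15). Over all genes, 9.25% had groups without overlap. Id2, a direct BMP target, measured 7.33, 7.33, 7.37 and 7.26 in K320E and 7.53, 7.46, 8.002 and 7.66 in controls, a fold change of -0.34 (SE 0.11, limma adjusted p = 0.20). The other Id genes of the list had fold changes of 0.30 for Id1 (SE 0.18), 0.20 for Id3 (SE 0.16) and -0.15 for Id4 (SE 0.07). None of these WNT and Id genes was called.

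**Figure D4:**
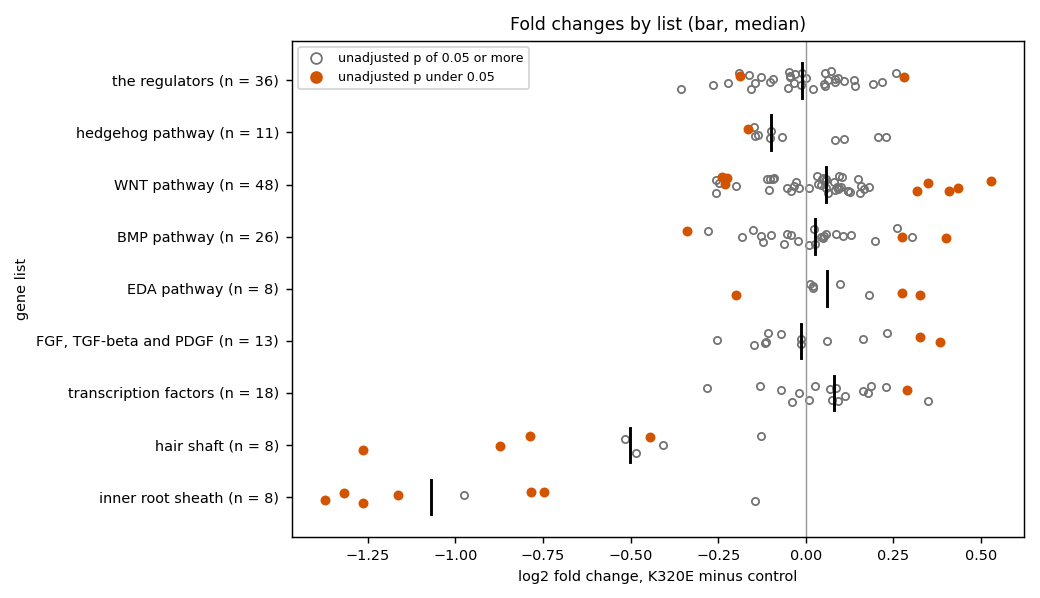
Log2 fold changes (K320E minus control) of the 36 regulators, of 124 other genes in 6 pathway lists and of the hair shaft and inner root sheath genes; each point is a gene, filled where its unadjusted limma p is under 0.05, and bars mark medians. The regulators and pathway lists centre near 0 (regulators -0.01), while the medians are -0.50 for hair shaft and -1.07 for inner root sheath genes.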

How the data were processed

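The members and lists were chosen with earlier results of these data known. The deposited values are log2 intensities of 33793 probe sets (4.31 to 13.1; array medians 6.06 to 6.11), which the authors had processed. How background was corrected and probes were summarised and normalised is not given in the sources used here; no further normalisation was applied. Per the labels' protocols, RNA was amplified and biotin-labelled with a NuGEN kit. Probe sets were named through GEO's platform annotation: 23521 have 1 symbol, 1814 several and 8458 none here. Each of 22180 genes was represented by its brightest probe set. limma 3.58.1 in R 4.3.3 (lmFit, eBayes, genotype as the only term, all 8 arrays) gave two-sided p-values, adjusted by Benjamini-Hochberg over all genes (threshold 0.05), moderated SEs and 95% intervals. The 4 arrays per group limit the precision. The script was tested on simulated data. All-array values were given by rule for genes with an unadjusted p under 0.05 and for 11 core regulators; those of Gli2, Wnt5a, Cux1, Inhba, Inhbb and Id2 were added after their values were seen. From each pathway list the gene with the lowest p was named. Alternatives were quantile normalisation, median centring, mean over probe sets, leaving out the 33.3% of genes with the lowest means, array weights, a trended and robust prior, a replicate block, a Y-linked covariate, control replicates 2 and 3 left out, and each array left out.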

Additional observations from a re-analysis of the deposited data

Results flagged for a closer look

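In 12 of 96 groups of 4 arrays checked (36 regulators, Twnk and 11 marker means, each in both genotypes), 1 array stood apart from the other 3; chance marks about 1 in 20 groups. K320E replicate 1 was that array for 6 regulators. It was high for Gli2 (8.05, the other K320E arrays at 7.71 to 7.75), Smo (8.87; 8.08 to 8.20), Lef1 (9.75; 9.33 to 9.39), Edaradd (7.85; 7.69 to 7.70) and Dlx3 (8.72; 8.16 to 8.25), and low for Fgf20 (6.09; 6.33 to 6.36). Control replicate 4 was low for Gli2 (7.36, the other controls at 7.66 to 7.68) and Wnt10b (6.28; 6.90 to 6.95) and high for Fst (8.88; 8.58 to 8.60). K320E replicate 3 was low for Wnt10a (6.73; 7.06 to 7.11) and high for the mean of the endothelium markers (6.51; 5.90 to 5.95). Control replicate 2 was high for Dkk4 (6.23; 5.96 to 5.98).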

How the results depend on the processing

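In all 17 alternatives 0 regulators were called in limma's test, while all genes called ranged from 53 (without K320E replicate 3) to 288 (lowest 33.3% of genes left out), beside 195 in the fit reported. The count of regulators at an unadjusted p under 0.05 ran from 1 to 7. It was 1 without control replicate 1 (beside 13.3% of all genes) and 7 without control replicates 2 and 3 (beside 14.0%). The median over the regulators lay between -0.093 (without K320E replicate 1) and 0.038, so its sign is not settled. With each array left out in turn, the median of the BMP genes ran from -0.098 to 0.037 and that of the WNT genes from 0.011 to 0.070. Of the other pathway genes, between 0 and 1 were called higher in those fits (Inhba, without K320E replicate 4), and 1, Bambi, was called lower without control replicates 2 and 3; the cause was not tested. The fold changes of Gli1, Lef1, Axin2, Ptch1, Shh, Sox9, Edar and Hoxc13 took both signs over the alternatives. Twnk stayed between 2.23 and 2.38 and past the threshold in every one. The labels do not say that replicate numbers pair the arrays. Correlations of same-numbered arrays' deviations from their group means were 0.05, -0.06, 0.08 and 0.14, and not every array matched its own number best. With the replicate block, 114 genes in all and 0 regulators were called.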
